A study of Mus musculus with 6 samples.

Results

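Peroxisome proliferator-activated receptor alpha (PPAR-alpha, gene Ppara) and 7 genes known as its targets in fatty acid oxidation were described in the livers of iron-deficient mice. The 8 genes were Ppara, Cpt1a, Ehhadh, Cyp4a10, Cyp4a14, Fgf21, Pdk4 and Acot1. They were taken by symbol from a deposited table of 23420 genes, and all 8 were found. All 8 also had a median level of at least 1 RPKM (RPKM is the number of reads per kilobase of transcript, scaled to the size of the library), as did 7994 genes of the table, which are called the tested genes below.

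The livers came from C57Bl/6 mice that were 4 weeks old when they were put on a diet with 2 ppm iron, which they ate for 3 weeks. They then received 2 intraperitoneal doses, 2 h apart, of RGFP966 at 20 mg/kg or of its vehicle, and were killed 2 h after the last dose. RGFP966 is an inhibitor of histone deacetylase 3 (HDAC3), an enzyme that removes acetyl groups from histones as part of the NCoR corepressor complexes. The labels name 3 livers of each treatment, chosen in the study for the quality of their RNA, and all 6 mice shared the low-iron diet, so no liver with normal iron was part of the series. The table has 6 columns, headed Sample1 to Sample6, which no label ties to a mouse or a treatment. The 6 columns were therefore read as 6 low-iron livers, and the difference between RGFP966 and vehicle cannot be told apart from the difference between mice in any spread given here.

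PPAR-alpha is a nuclear receptor that binds fatty acids and pairs with a retinoid X receptor on DNA. In the liver it is best known for turning on the burning of fat in fasting, through carnitine-dependent entry of fatty acids into mitochondria, beta-oxidation in mitochondria and peroxisomes, omega-hydroxylation by the Cyp4a enzymes in the endoplasmic reticulum, and the making of ketone bodies. Its targets also include genes with a wider reach, such as the secreted hormone FGF21 and the kinase PDK4, which holds back the use of glucose.

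Between 27654939 and 36850745 reads per column stood behind the values. The deposited RPKM values held a scaling of library sizes by factors of 0.916 to 1.11, and with unscaled totals the median tested gene moved by between -0.12 and 0.15 on the log2 scale, depending on the column. The columns were not equally alike. Over the tested genes, r between a pair of columns ran from 0.951 to 0.988 on the log2(RPKM + 0.1) scale. All 8 hepatocyte markers were above 0 in every column, and their summed level lay between 42463 and 52191 RPKM. The summed levels of the other lists were 125 to 190 RPKM for 7 Kupffer cell markers, 64.4 to 92.4 for 6 endothelial markers, 70.8 to 112 for 6 stellate cell markers and 49.1 to 69.8 for 5 cholangiocyte markers. They were 263 to 698 RPKM for the erythroid markers, 11.4 to 128 for the leukocyte markers and 18.3 to 67.1 for the adipocyte markers. The adipocyte-defining genes Adipoq, Lep and Plin1 were listed at 0 in every column. The highest gene of each list was Apoa1, Clec4f, Clec4g, Dcn, Spp1, Beta-s (an older name in the table for a beta-globin gene), S100a8 and Fabp4, in the order of the lists.

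Some members have close relatives whose sequence decides what an aligned read can tell. Cyp4a10 and Cyp4a14 lie beside each other in a cluster of Cyp4a genes on chromosome 4, and Acot1 lies in a cluster of acyl-CoA thioesterase genes on chromosome 12. The first 60 coding bases of each gene, from GENCODE M21 on GRCm38, are shown to let the eye compare them. Capitals mark bases that differ from the base at the same position of the first sequence of the set, with no gaps. They lie at chr4:115518322-115518381 on the forward strand for Cyp4a10, at chr4:115496054-115496113 on the reverse strand for Cyp4a14, and on the forward strand at chr4:115563717-115563776 for Cyp4a31 and chr4:115600975-115601034 for Cyp4a32, in the first coding exon of each gene.
Cyp4a10: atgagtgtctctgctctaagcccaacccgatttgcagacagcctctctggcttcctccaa
Cyp4a14: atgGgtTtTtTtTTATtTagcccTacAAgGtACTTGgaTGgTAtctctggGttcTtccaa
Cyp4a31: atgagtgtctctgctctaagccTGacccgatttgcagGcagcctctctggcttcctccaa
Cyp4a32: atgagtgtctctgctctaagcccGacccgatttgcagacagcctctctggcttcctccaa

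Over these bases Cyp4a14 differed from Cyp4a10 at 24 of 60, Cyp4a31 at 3 and Cyp4a32 at 1. Over the whole coding sequence, 75.6% of aligned positions were identical between Cyp4a10 and Cyp4a14, 96.6% between Cyp4a10 and Cyp4a31, and 97.2% between Cyp4a10 and Cyp4a32. Of the 2060 windows of 50 bases in the Cyp4a10 transcript, 30.5% occurred without a mismatch in a transcript of Cyp4a31 or Cyp4a32, and with windows of 75 bases 19.1% did. For Cyp4a14 the share was 0.245% at 50 bases and 0% at 75. Reads from those windows cannot be told apart from the relatives, whereas nearly all of the Cyp4a14 transcript can be told from any other gene.

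The Acot1 set is shown for the same purpose, from chr12:84009510-84009569 for Acot1, chr12:83987902-83987961 for Acot2 and chr12:84038511-84038570 for Acot4, all on the forward strand.
Acot1: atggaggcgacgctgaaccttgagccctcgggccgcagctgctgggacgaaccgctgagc
Acot2: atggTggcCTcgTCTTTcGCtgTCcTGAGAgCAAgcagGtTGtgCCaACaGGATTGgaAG
Acot4: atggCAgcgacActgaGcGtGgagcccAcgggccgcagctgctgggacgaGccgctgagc

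Compared position by position with no gaps, Acot2 differed from Acot1 at 35 of these 60 bases and Acot4 at 8. The coding sequence has 1362 bases in Acot2 and 1260 in Acot1, so the positions shown for Acot2 may not correspond. Over the aligned coding sequences the identity was 85.5% for Acot2 and 74.0% for Acot4. Of the windows of 50 bases in the Acot1 transcript, 33.7% also occurred in transcripts of other genes, and at 75 bases it was 26.4%, shared with Acot2, Acot3, Acot4, Acot5 and Acot6. Reads that align to several places are left out of the counts by default, so the values of Cyp4a10 and Acot1 may be too low. The size of this effect was not measured. For the transcripts searched of Ppara, Cpt1a, Ehhadh and Fgf21 no window of either length was shared with another gene, and for Pdk4 1.43% were shared at 50 bases. The Ppara transcript searched had 3413 bases, whereas the length behind its RPKM was 7528 bases, so part of the counted sequence was not searched. For Acot1 these lengths were 2272 and 1558 bases.

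Ppara itself, the receptor (ENSMUSG00000022383, chromosome 15 of GRCm38, 85734983 to 85802819, forward strand), had the narrowest range of the 8 in the deposited values. It stood at 11.7, 13.7, 11.97, 14.6, 14.5 and 15.8 RPKM in Sample1 to Sample6. The lowest values were in Sample1 and Sample3 and the highest was in Sample6, so that the highest liver had 1.35 times the lowest. On the log2(RPKM + 0.1) scale the range was 0.43, wider than that of 25.5% of the tested genes. With unscaled library totals the range of Ppara was 0.63 and that of Cpt1a 0.49, so that Cpt1a was then the narrowest. The exact Poisson 95% intervals, which cover counting error only, were 11.2 to 12.2 RPKM in Sample1 and 15.3 to 16.3 RPKM in Sample6 and did not overlap, from 2243 and 4629 reads.

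Of the genes that work with the receptor, Rxra, its partner on DNA, was at 12.6 to 16.4 RPKM, Ncor1, a corepressor, at 1.55 to 1.89 RPKM, and Hdac3, the enzyme that RGFP966 inhibits, at 11.9 to 14.8 RPKM. These 3 genes were steady too, with log2 ranges of 0.38, 0.27 and 0.31. In the list of 15 partners and coregulators, 10 were tested, 2 had a log2 range over 1 (Lpin1, at 32.8 to 70.5 RPKM, and Rxrb, at 1.19 to 2.53 RPKM), and the median range was 0.66. Nr1h3, the liver X receptor alpha, was among the highest of them at 35.6 to 50.4 RPKM, and Ncoa2, a coactivator, varied between 0.878 and 1.59 RPKM.

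Most of the targets were spread more widely than the receptor. Of the 8 genes, 5 had a log2 range over 1, which means that the level in the highest liver was more than 2 times that in the lowest, apart from the pseudocount. Among all tested genes 22.7% had such a range. With Sample3 left out, 3 of the 8 did, as the ranges of Fgf21 and Acot1 then were 0.67 and 0.71. The range of 7 of the 8 genes was above the median of all tested genes, which was 0.63. These counts describe a list of well-known inducible genes and carry no test.

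**Figure D1:**
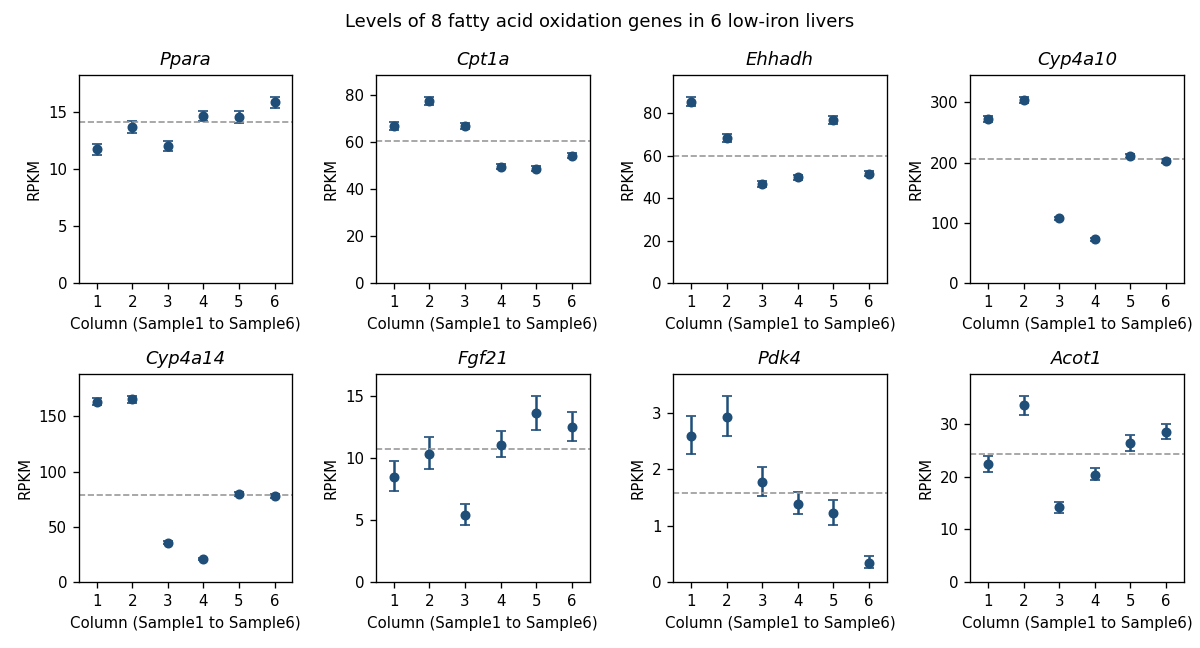
RPKM (vertical axes, each from 0) of the 8 genes in the 6 columns of low-iron livers (horizontal axes, numbered as in Sample1 to Sample6), with exact Poisson 95% intervals as bars and the median of the 6 columns as a dashed line. Cyp4a10 and Cyp4a14 were lowest in Sample3 and Sample4, Pdk4 was lowest in Sample6, and Ppara lay between 11.7 and 15.8 RPKM.

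Cyp4a14 and Cyp4a10, the fatty acid omega-hydroxylases that are classic markers of PPAR-alpha activity in the mouse, were the members with the highest median levels, and Cyp4a14 had the widest range of the 8. Cyp4a14 (ENSMUSG00000028715, chromosome 4, 115486200 to 115496142, reverse strand) stood at 163, 165, 35.5, 20.9, 79.7 and 77.6 RPKM in Sample1 to Sample6. These values fell into steps, with Sample1 and Sample2 at the top, Sample5 and Sample6 below them, and Sample3 and Sample4 at the bottom. The highest liver had 7.88 times the lowest, and the log2 range of 2.97 was wider than in 98.9% of the tested genes. Counting error was small beside this, as the lowest value rested on 2109 reads and had an interval of 20.1 to 21.9 RPKM.

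Cyp4a10 (ENSMUSG00000066072, chromosome 4, 115518264 to 115533649, forward strand) stood at 272, 304, 108, 72.9, 211 and 203 RPKM. The livers took the same order as for Cyp4a14, with Sample2 highest and Sample4 lowest. The highest was 4.17 times the lowest, and the log2 range of 2.06 was wider than in 97.0% of the tested genes. Cyp4a10 was above Cyp4a14 in all 6 columns, but not by a fixed ratio. Its level per length was 1.67 and 1.84 times that of Cyp4a14 in Sample1 and Sample2, 2.65 and 2.61 times in Sample5 and Sample6, and 3.04 and 3.48 times in Sample3 and Sample4, so the excess was larger where both genes were lower.

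Among the other Cyp4a genes, Cyp4a31 followed the pair most closely, at 13.7, 14.9, 6.29, 5.21, 10.9 and 9.71 RPKM. It was the tested gene with the highest r to both Cyp4a10 (r = 0.991) and Cyp4a14 (r = 0.992). The part of the sequence shared with Cyp4a10 in the first of these values was not tested. Cyp4a32, which is closer still to Cyp4a10 in sequence, varied less, from 20.1 to 32.6 RPKM, with r of 0.59 to Cyp4a10. Cyp4a12a and Cyp4a12b, of which the mouse is known to make more in males, ran from 107 to 194 and from 26.8 to 63.4 RPKM, and had r of -0.49 and -0.67 to Cyp4a10. Over 6 columns these r are descriptions.

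**Figure D2:**
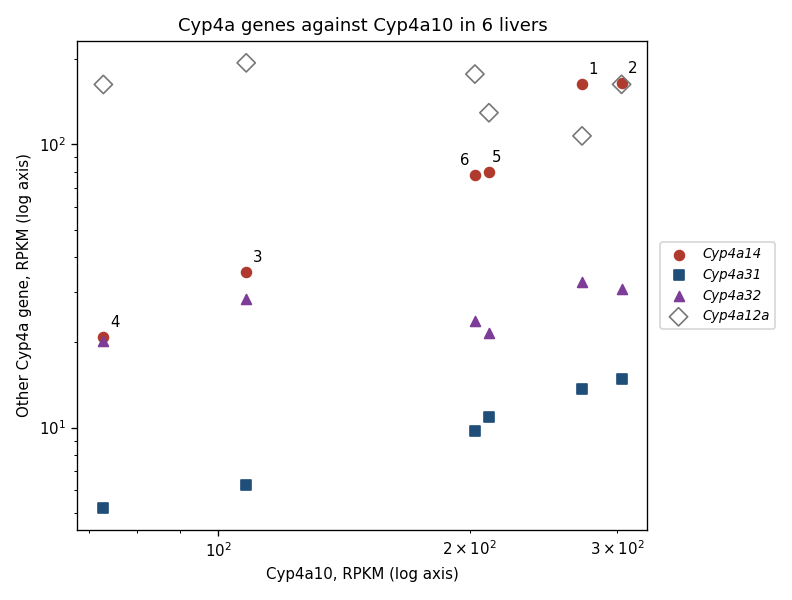
RPKM of Cyp4a14, Cyp4a31, Cyp4a32 and Cyp4a12a (vertical log axis) against RPKM of Cyp4a10 (horizontal log axis) in the 6 columns, each of which is 1 low-iron liver; the numbers beside the Cyp4a14 points are the column numbers. Cyp4a14 and Cyp4a31 climb with Cyp4a10, from 20.9 to 165 and from 5.21 to 14.9 RPKM, whereas Cyp4a12a is at 107 to 194 RPKM with no climb.

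Cpt1a, carnitine palmitoyltransferase 1a, makes the acylcarnitines that enter mitochondria and sets the rate of their entry in liver (ENSMUSG00000024900, chromosome 19, 3322334 to 3385733, forward strand). It was at 66.7, 77.3, 66.8, 49.4, 48.7 and 54.1 RPKM in Sample1 to Sample6. Sample1, Sample2 and Sample3 were above the other columns, with no overlap of their counting intervals. Its log2 range of 0.67 was close to the median of the tested genes, at the 53.1 percentile. Its muscle form, Cpt1b, was listed at 0 in 5 columns and at 0.0171 RPKM in Sample4, and the brain form, Cpt1c, reached 0.126 RPKM at most. Acaca and Acacb, which make the malonyl-CoA that blocks CPT1, were at 1.09 to 3.72 and 4.27 to 5.34 RPKM.

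RefSeq promoter windows were matched for 6 members (Acot1, Cpt1a, Ehhadh, Fgf21, Pdk4 and Ppara). AGGTCA, the core motif of many nuclear receptor sites, was searched on both strands in the 250 bases before each gene's start, and of the 6 it occurred in Cpt1a only. The match is shown with its surroundings, from chr19:3323195-3323224 of GRCm38.p6, forward strand, with the motif, here read on the reverse strand, in capitals.
Cpt1a: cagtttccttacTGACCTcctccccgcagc
The motif spans the bases 94 to 89 before the RefSeq start, and it lies inside the gene as GENCODE draws it, since an isoform there starts farther upstream. A match was found in 14.0% of all 32851 windows. The direct repeat AGGTCANAGGTCA, the textbook form of a PPAR site, was in 0.0335% of windows, and its looser form AGGNCANAGGNCA in 0.338%. Neither occurred in the 6 windows of the members, which says only that these letters were not there.

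Ehhadh, the bifunctional enzyme of peroxisomal beta-oxidation (ENSMUSG00000022853, chromosome 16, 21761287 to 21787807, reverse strand), stood at 85.4, 68.4, 46.6, 49.9, 76.8 and 51.6 RPKM. Sample1, Sample5 and Sample2 were high and Sample6, Sample4 and Sample3 were low. The log2 range was 0.87, wider than in 70.4% of the tested genes. The summed Kupffer cell markers were, like Ehhadh, higher in Sample1, Sample2 and Sample5 than in the other columns. Their summed level was 190, 163, 125, 144, 181 and 135 RPKM in Sample1 to Sample6, all 7 markers were above 0 in every column, and Emr1, the older name of the macrophage gene Adgre1, was among the 3 tested genes most like Ehhadh (r = 0.983). Marco and Timd4 did not split this way. Marco was at 5.26 RPKM in Sample2 and 5.53 RPKM in Sample4, and Timd4 at 1.60 RPKM in Sample5 and 1.80 RPKM in Sample6. The summed stellate cell markers split like Ehhadh too, at 112, 110, 95.3, 94.4, 107 and 70.8 RPKM. Most of this sum was Dcn, which split this way at 107, 105, 91.5, 88.4, 102 and 66.5 RPKM. Lrat, Reln, Col1a1, Des and Pdgfrb did not. The summed endothelial markers also split like Ehhadh, at 88.2, 92.4, 72.1, 73.8, 84.1 and 64.4 RPKM. Among them Stab2 did, at 5.12, 4.68, 4.13, 4.21, 4.44 and 4.24 RPKM, whereas Pecam1, Kdr, Clec4g, Lyve1 and Cdh5 did not. The sums of the other marker lists did not. The part of any cell type in the Ehhadh values was not tested. In bulk liver, fewer cells of a type cannot be told apart from less RNA per cell.

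Acot1, a cytosolic thioesterase that frees fatty acids from coenzyme A (ENSMUSG00000072949, chromosome 12, 84009490 to 84018371, forward strand), was at 22.4, 33.4, 14.1, 20.4, 26.3 and 28.5 RPKM. Sample2 was highest and Sample3 lowest, with a log2 range of 1.24. Its relatives Acot2, the mitochondrial form, and Acot4, a peroxisomal form, were lower, at 3.01 to 7.11 and 3.44 to 8.70 RPKM, and were also lowest in Sample3. Acot3, another peroxisomal form, did not follow them. It was at 0.167, 0.403 and 0.195 RPKM in Sample1, Sample2 and Sample3, and at 1.53, 3.13 and 3.28 RPKM in Sample4, Sample5 and Sample6. The values in Sample1, Sample2 and Sample3 rested on 11, 28 and 16 reads. With a median of 0.966 RPKM, Acot3 was not among the tested genes.

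Fgf21, which codes for a liver hormone of fasting, was at 8.50, 10.3, 5.37, 11.1, 13.6 and 12.5 RPKM (ENSMUSG00000030827, chromosome 7, 45613886 to 45615490, reverse strand). Sample3 was lowest and Sample5 highest. The log2 range was 1.32, wider than in 88.3% of the tested genes. Between 161 and 461 reads stood behind each value, and the counting interval of the lowest, 4.58 to 6.27 RPKM, did not reach that of any other column. Klb, the co-receptor through which FGF21 signals, was at 4.20 to 11.4 RPKM. The FGF receptors with the highest medians, Fgfr4 and Fgfr2, were at 1.79 to 3.21 and 1.09 to 1.66 RPKM. Fgfr3 and Fgfr1 had lower medians, of 0.975 and 0.289 RPKM. Which receptor FGF21 acts on in these livers was not tested.

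Pdk4, pyruvate dehydrogenase kinase 4, was the lowest of the 8 and among the widest (ENSMUSG00000019577, chromosome 6, 5483351 to 5496309, reverse strand). It stood at 2.59, 2.93, 1.77, 1.39, 1.22 and 0.342 RPKM in Sample1 to Sample6. The log2 range of 2.78 rests on Sample6, and without that column it was 1.20. The value in Sample6 came from 46 reads, with an interval of 0.251 to 0.456 RPKM, so that it stayed below every other column beyond counting error. Its relatives were Pdk2, the main kinase of liver, at 27.1 to 58.0 RPKM, Pdk1 at 9.24 to 15.7 RPKM and Pdk3 at 0.236 to 0.632 RPKM. Pdk2 did not share the order of Pdk4, as it was highest in Sample4 and lowest in Sample3. Of the subunits of the pyruvate dehydrogenase complex, Pdhb and Pdha1 were steady, at 97.8 to 129 and 33.5 to 38.8 RPKM. Dlat, another subunit, was at 11.4 to 17.3 RPKM, a log2 range of 0.60 beside the median of 0.63 over the tested genes.

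In order of their median RPKM, which is a level per length, the genes ran from Cyp4a10 (207) through Cyp4a14 (78.7), Cpt1a (60.43), Ehhadh (60.004), Acot1 (24.3), Ppara (14.1) and Fgf21 (10.7) to Pdk4 (1.58). Of the 7 pairs of neighbours, 5 kept their order in all 6 columns. Cpt1a and Ehhadh did not differ beyond their spread, with Cpt1a above in 3 of 6 columns, and Cyp4a14 was above Cpt1a in 4 of 6. The ranges of Ehhadh and Acot1, and those of Fgf21 and Pdk4, did not overlap.

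**Figure D3:**
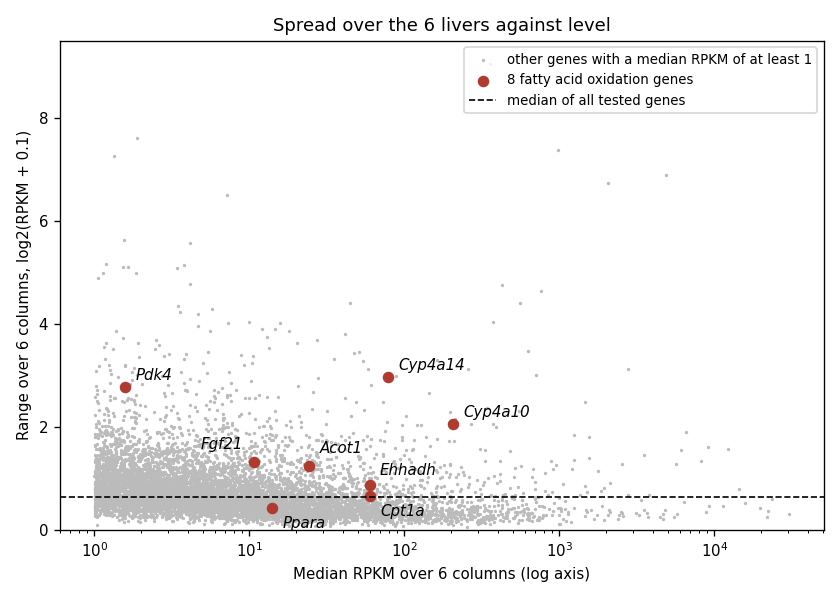
Range over the 6 columns on the log2(RPKM + 0.1) scale (vertical axis) against median RPKM (horizontal log axis) for the 7994 tested genes, with the 8 members in red and the median range of 0.63 as a dashed line. Cyp4a14, Pdk4 and Cyp4a10 lie above 2, whereas Ppara, at 0.43, is the only member under the line in the deposited values.

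Co-variation was examined over all 28 pairs of the 8 genes with Pearson's r on the log2(RPKM + 0.1) scale and a two-sided exact permutation test over the 720 orderings of the 6 columns. Of the 28 pairs, 20 had r above 0 and 8 below. An exact p below 0.05 was reached by 2 pairs, which is close to the background, since 8.24% of the relations between a member and any other tested gene reached it. None of 63916 relations passed 0.05 after Benjamini-Hochberg adjustment over all of them. Separate clusters of columns, defined as a gap of over 50% of the range with at least 2 columns on each side, were present in 12.8% of tested genes and in 0 of the 8 members. This rule asks for a wide gap. Ppara, Cpt1a, Fgf21 and Pdk4 still had no overlap between Sample1 to Sample3 and Sample4 to Sample6, with narrower gaps. How many of all tested genes had no such overlap was not counted, so it cannot be called particular to these members. Over the tested genes, r between columns was 0.983 to 0.988 within these sets of columns and 0.951 to 0.975 between them.

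Cyp4a10 and Cyp4a14 had r = 0.988 (exact permutation p = 0.00139, the smallest that 720 orderings can give for r; adjusted p = 0.429). Spearman's rank correlation was 1 (exact permutation p = 0.00278), and the genes changed in the same direction between all 15 pairs of columns. Without Sample4 and Sample3, the columns farthest from the Cyp4a10 median, r was 0.975. Ppara and Fgf21 had r = 0.826 (exact permutation p = 0.0361; adjusted p = 0.570), with the same direction in 12 of 15 pairs of columns. Spearman's rank correlation was 0.771 (exact permutation p = 0.103), and without both Sample1 and Sample3, the columns farthest from the Ppara median, r over the remaining 4 columns was 0.586. Without Sample1 alone it was 0.914 and without Sample3 alone 0.877. Both genes were lower in Sample1, Sample2 and Sample3 than in Sample4, Sample5 and Sample6. Ppara was at 11.7 to 13.7 against 14.5 to 15.8 RPKM, and Fgf21 at 5.37 to 10.3 against 11.1 to 13.6 RPKM. The permutation test treats the 6 columns as exchangeable, so it cannot separate this step from co-variation within each set of columns.

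The remaining pairs did not pass the test, and the sign of several turned with 1 column left out. Ehhadh had r = 0.760 to Cyp4a10 and 0.787 to Cyp4a14 (exact permutation p = 0.0889 and 0.0819). Ppara was not aligned with the Cyp4a pair, with r = -0.09 to Cyp4a10 and -0.20 to Cyp4a14. Its r to Cpt1a and to Pdk4 was -0.63 and -0.74. Cpt1a and Pdk4 were both higher in Sample1, Sample2 and Sample3 than in the other columns, so the same limit holds for these r. Cpt1a and Acot1 had r = 0.05.

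**Figure D4:**
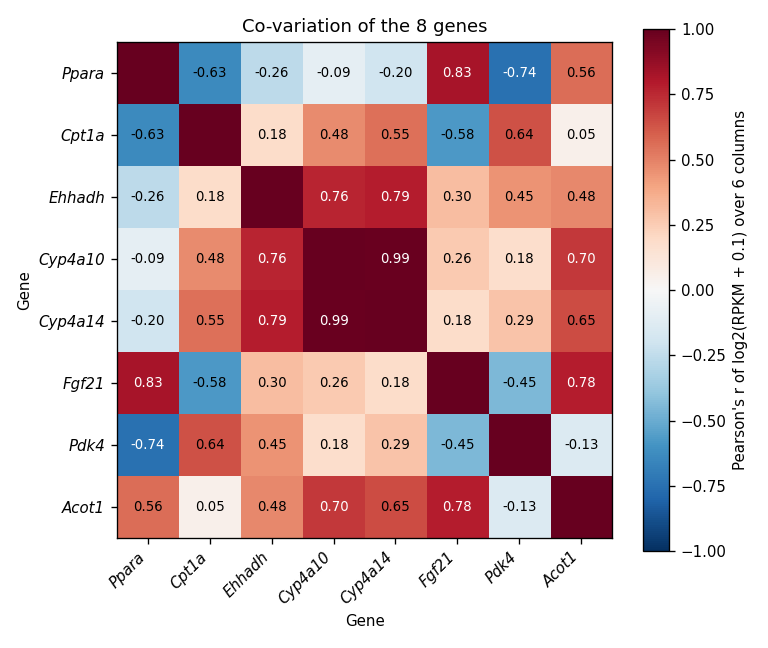
Pearson's r of log2(RPKM + 0.1) over the 6 columns for each pair of the 8 genes, as the colour and the number of each square; the diagonal is left blank. The darkest square off the diagonal joins Cyp4a10 and Cyp4a14 (0.99), and Ppara has negative values with Cpt1a (-0.63) and Pdk4 (-0.74).

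The 3 tested genes outside the 8 members that were most like each member, by r over the 6 columns, were as follows. For Ppara they were Ankmy2, Acy3 and Atg5 (r from 0.994 to 0.996), and for Cpt1a they were Slc22a5, the carnitine transporter OCTN2, with Atl2 and Nup93 (r from 0.986 to 0.987). Slc22a5 stood at 13.9, 22.6, 17.9, 6.00, 4.98 and 7.71 RPKM, a wider spread than Cpt1a. For Ehhadh they were Cul4b, Emr1 and Mul1. Cyp4a10 was most like Cyp4a31, Rgn and Ppm1d, and Cyp4a14 most like Cyp4a31, Ppm1d and Usp4. The r of 0.988 between Cyp4a10 and Cyp4a14 themselves was higher than all of these except those of Cyp4a31. For Fgf21 they were Snapc3, Daglb and Ppp2r5a (r from 0.992 to 0.996), for Pdk4 Cpne1, Pramef8 and Hao1 (r from 0.978 to 0.984), and for Acot1 Wdr20a, Nudt12 and Mrpl3 (r from 0.963 to 0.987). Values this high arise among so many genes over 6 columns, and none had an adjusted p below 0.429.

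The other genes of the pathway had a lower median range than the members and were close to the tested genes as a whole. Of 93 genes in 8 lists, 80 were tested, and 18 of these had a log2 range over 1, a share close to the 22.7% of all tested genes. Their median log2 range was 0.59, against 1.28 for the 8 members and 0.63 for all tested genes.

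The 18 mitochondrial beta-oxidation genes, which carry out the chain shortening that Cpt1a feeds, were the steadiest large list. Their median log2 range was 0.35, and 2 of the 18 lay above the median of all tested genes. The most abundant, Acaa2, the last enzyme of the cycle, was at 966 to 1042 RPKM, and the electron carriers Etfb and Etfa were at 627 to 709 and 246 to 288 RPKM. Acsl1, which activates fatty acids, was the only one with a log2 range over 1, at 204, 163, 117, 189, 281 and 274 RPKM in Sample1 to Sample6. Eci2 was at 255, 229, 216, 143, 142 and 144 RPKM, and Cpt2, the partner of CPT1 on the inner membrane, at 65.4 to 101 RPKM.

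Among the 11 peroxisomal genes the median log2 range was 0.58, with 2 over 1. Abcd2, a peroxisomal transporter, was low, at 0.633 to 2.24 RPKM, Crot was at 173 to 319 RPKM, and the abundant Scp2 and Acaa1b were at 730 to 853 and 309 to 463 RPKM. None of the 4 ketone body genes had a range over 1. Acat1 was at 99.9 to 124 and Bdh1 at 31.004 to 49.6 RPKM.

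The list of other PPAR-alpha targets was more widely spread than the beta-oxidation lists. Of its 26 genes, which include the Cyp4a and Acot relatives above, 24 were tested, 10 had a log2 range over 1, and the median was 0.85. Among the tested genes of this list G0s2, an inhibitor of fat breakdown, varied most, at 22.5, 165, 28.4, 189, 223 and 162 RPKM, with Sample1 and Sample3 far below the rest. Cidec, a lipid droplet protein, was at 6.69, 13.1, 8.32, 4.12, 3.70 and 3.06 RPKM, and Ucp2 at 5.12 to 15.1 RPKM. Plin2, the main coat protein of lipid droplets in liver, was at 439 to 992 RPKM, the very abundant Fabp1 at 11697 to 16829, and Slc27a2 at 560 to 705 RPKM.

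Of the smaller lists, 3 of 5 FGF21 receptor genes, 8 of 10 genes of the pyruvate dehydrogenase complex and its kinases, and 2 of 4 genes around CPT1 were tested, with median log2 ranges of 0.81, 0.51 and 1.00. In each of these lists 1 gene had a range over 1.

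**Figure D5:**
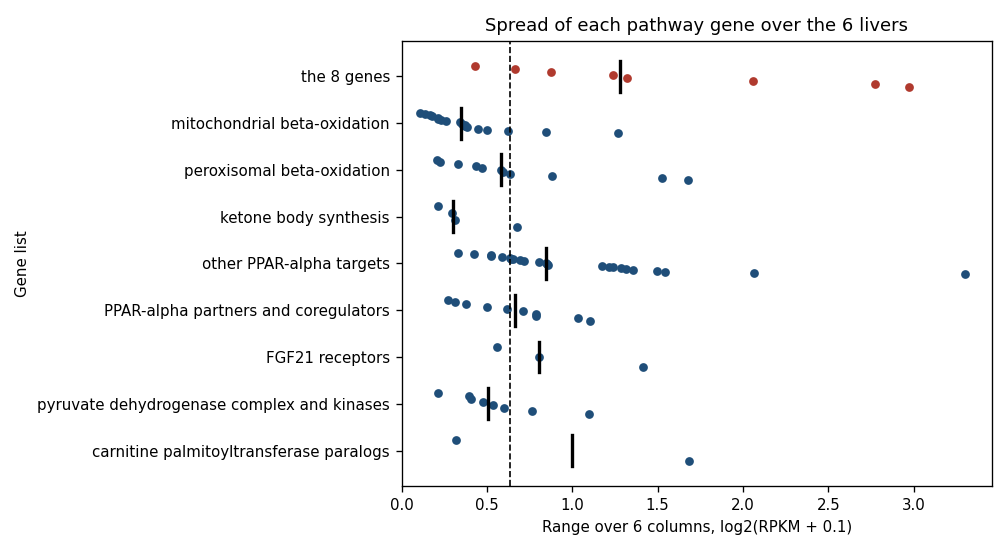
Range over the 6 columns on the log2(RPKM + 0.1) scale (horizontal axis) for each tested gene of the 8 members (red) and of 8 pathway lists (blue), with a black bar at each list's median and a dashed line at 0.63, the median of all tested genes. Mitochondrial beta-oxidation genes cluster to the left, with a median of 0.35, and the 8 members reach farther right, with a median of 1.28.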

How the data were processed

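Liver RNA was turned into cDNA by Smart-seq2 and sequenced on a NextSeq instrument. As the submitters' processing notes and the paper's methods state, the authors checked reads with FastQC 0.11.4, aligned them with STAR 2.4.2a to GRCm38 with UCSC transcripts, counted them per gene with featureCounts (Subread 1.5.0-p2) at its default settings, and deposited RPKM values made with edgeR. Reads that align to several places are left out of such counts by default, which lowers genes with near-identical copies. Hba-a1 and Hba-a2 were listed at 0 in every column.

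The 6 columns carry sample numbers that no label pairs with a treatment, so no treatment comparison was made and no mean or SD is reported. P-values measure the spread between these 6 columns only. Whole reads behind each RPKM were recovered from the ratios of values within each gene: all 16028 genes above 0 came out whole within 0.01 reads, which gave the depth and exact Poisson 95% intervals. A count test needs groups and was not run. Ranges and Pearson's r were taken on log2(RPKM + 0.1) over genes with a median RPKM of at least 1. The scripts were tested on simulated data first.

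Genes were named by a rule. It took the 8 members, the 3 non-member genes with the highest r to each, close paralogs, Rxra, Ncor1 and Hdac3. It also took up to 3 highest and 3 widest genes of each pathway list and the highest gene of each marker list. A few genes that this rule names are not reported here. Marker symbols missing from the table were matched by an older RefSeq symbol. The members and lists were chosen with earlier results of these data known. Transcripts and positions came from GENCODE M21 and promoter windows from RefSeq GRCm38.p6. Coding sequences were aligned end to end in Biopython 1.88 (match 1, mismatch -1, gap opening -3, gap extension -0.5). Alternatives were other pseudocounts, floors and scalings, rank correlation, values without a log, and each column left out in turn.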

Additional observations from a re-analysis of the deposited data

How the results depend on the processing

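Of 41 counts that summarise the members, their order and the lists under the alternatives tried, 33 stayed within 1.5 times the reported count, and no called relation changed sign. The counts of pairs were the least stable. The number of members with a log2 range over 1 was 3 to 5 with a column left out, the 3 being without Sample3, and 5 under every pseudocount and scaling tried. A floor cannot change this number, so the floor settings for it, which are among the 33, do not test it. Rescaling by each column's median ratio used factors of only 1.003 to 1.012, so it tests little. The number of pairs of members with an exact permutation p below 0.05 was 1 by Spearman's rank correlation and 1 to 4 with a column left out, against 2 as reported. The 4 were reached without Sample2, and 5 columns leave fewer orderings. Without any 1 of the columns, Ppara and Fgf21 no longer passed (r from 0.822 to 0.914), whereas Cyp4a10 and Cyp4a14 passed in each case (r from 0.978 to 0.994). With unscaled library totals, an alternative chosen after seeing the data, 3 pairs passed, Fgf21 and Acot1 being the added one (r = 0.853), the log2 range of Ppara was 0.63, wider than the 0.49 of Cpt1a, and 6 members kept their place in the order. With a pseudocount of 1 the log2 range of Pdk4 was 1.55. With a floor of 0.1 RPKM, 89 pathway genes in place of 80 were tested. Depth limits Pdk4 most, as 46 reads stood behind its lowest value. No paired analysis was possible because the columns carry no pairing and form a single group.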

Other observations

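The 6 columns differed in how alike they were across the 7994 tested genes. On the log2(RPKM + 0.1) scale, r was 0.984 for Sample1 with Sample2, 0.985 for Sample1 with Sample3 and 0.988 for Sample2 with Sample3. It was 0.983 for Sample4 with Sample5, 0.988 for Sample4 with Sample6 and 0.985 for Sample5 with Sample6. The other 9 pairs of columns had r from 0.951, for Sample3 with Sample5, to 0.975, for Sample2 with Sample6. Which of the columns are RGFP966 livers cannot be read from these values. Members differed in how often they reached an exact permutation p below 0.05 with other genes, from 16.0% of 7993 genes for Ppara and 15.2% for Fgf21 to 3.19% for Cyp4a10 and 2.54% for Acot1, with 0 passing Benjamini-Hochberg adjustment in any member. The highest shares were those of Ppara, Fgf21, Cpt1a (11.2%) and Pdk4 (8.95%). Over all members together, 8.24% of the relations with other tested genes reached it, so the share of Pdk4 was close to this background. Ppara, Fgf21, Cpt1a and Pdk4 had no overlap between Sample1 to Sample3 and Sample4 to Sample6. The share of all tested genes with no such overlap was not counted.

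Genes of fat handling with a wide range had several patterns over the same livers. G0s2 was lowest in Sample1 and Sample3 (22.5 and 28.4 RPKM) and at 162 to 223 RPKM elsewhere. Acot3 and Rxrg, the latter chosen after its values were seen, were below 0.6 RPKM in Sample1, Sample2 and Sample3, and reached 3.28 and 2.87 RPKM in Sample6. Neither was a tested gene, as their medians were 0.966 and 0.824 RPKM. Their values in Sample1 to Sample3 rested on 11 to 28 and 21 to 34 reads. S100a8, a neutrophil gene, was at 127, 25.9, 95.5, 14.5, 14.9 and 10.2 RPKM in Sample1 to Sample6.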
